A study of Mus musculus with 14 samples.

Results

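Accessible chromatin at 28 genes of cholesterol synthesis, transport and control was compared between mouse livers with and without matrin-3. The genes are Srebf2 and Scap, which drive the programme, Insig1 and Insig2, which restrain it, and 18 enzymes of the synthesis pathway: Acat2, Hmgcs1, Mvk, Pmvk, Mvd, Idi1, Fdps, Ggps1, Fdft1, Sqle, Lss, Cyp51, Msmo1, Nsdhl, Hsd17b7, Tm7sf2, Sc5d and Dhcr7. Stard4, Npc1, Soat2 and Lpin3 stand for transport, esterification and lipid handling, and Abca1 and Mylip for efflux and the control of uptake. The genes came as a list, and an interval of open chromatin was assigned to the shortest protein-coding RefSeq gene that held its midpoint, or else to the nearest one within 50000 bp. By this rule the 28 genes held 261 of 105801 intervals in the high-fat table and 253 of 88203 in the chow table, and each gene held at least 1 interval in both. In all, 16280 genes had an interval in the high-fat table and 15932 in the chow table.

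ATAC-seq, in which a transposase cuts and tags open DNA, was run on liver nuclei, each preparation starting from 50 mg of frozen tissue, of 14 females. The knockout (LKO) animals carried floxed matrin-3 alleles and Albumin-Cre, a transgene that is active in hepatocytes and is used to delete floxed alleles in liver, while their littermates (flox) carried the floxed alleles alone. The animals received a diet with 60 kcal% fat, started at 7 weeks of age, or chow for 16 weeks, giving 4 LKO and 4 flox mice on the high-fat diet and 3 LKO and 3 flox mice on chow. High-fat mice were fasted for 12 h at the end, while for chow mice no source used here says whether they were. Reads within intervals totalled 7.59 to 9.46 M in high-fat LKO and 7.80 to 10.4 M in high-fat flox libraries, and 15.5 to 35.0 M in chow LKO and 17.1 to 33.2 M in chow flox libraries. The common biological coefficient of variation between animals was 0.17 in the high-fat table and 0.187 in the chow table. In both chow groups the library numbered 2 was the shallowest and the highest of its group on the first principal component, which held 42.2% of the variance. In the high-fat table the first component held 25.7% and the genotypes overlapped on it, with flox 3 above LKO 1 and LKO 2.

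Matr3, the targeted gene, held 7 intervals in each table, and none passed the edgeR test. Its strongest high-fat interval averaged 29.9 ± 1.86 CPM (counts in an interval per 1000000 counts in the library) in LKO and 30.1 ± 5.79 CPM in flox livers (SD, n = 4 each), and its strongest chow interval averaged 27.8 ± 2.86 CPM in LKO and 27.3 ± 3.03 CPM in flox livers (SD, n = 3 each). In 2 weaker high-fat intervals every LKO liver lay below every flox liver, with 2.32 to 4.44 CPM in LKO and 4.65 to 7.37 CPM in flox livers in one (log2 fold change -0.78, edgeR adjusted p = 0.228) and 3.53 to 4.85 CPM in LKO and 5.27 to 6.07 CPM in flox livers in the other (-0.42, edgeR adjusted p = 0.579). The share of all intervals that separate the groups in this way was not counted. No source used here places the floxed segment, and accessibility at Matr3 therefore cannot serve as a test of the genotypes.

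Srebf2 encodes SREBP2, a transcription factor held in the membrane of the endoplasmic reticulum by its escort, SCAP. When membrane sterol is scarce, SCAP carries SREBP2 to the Golgi, where proteases free the part that enters the nucleus and switches on the genes of cholesterol synthesis and uptake. When sterol is plentiful, the INSIG proteins bind SCAP and keep the complex in the endoplasmic reticulum. Insig1 is itself an SREBP target, whereas the mouse liver also makes an Insig2 transcript, Insig2a, that insulin lowers. SREBPs act on sterol regulatory elements, commonly together with NF-Y and Sp1.

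The start sites of both INSIG genes are shown because accessibility there is set beside accessibility farther along the genes, and Hmgcs1, the enzyme that forms HMG-CoA, is shown as an SREBP2 target with a sterol regulatory element. RefSeq windows of build GRCm38.p6, which is the assembly that mm10 names, reach from 250 bases before to 50 bases after a start, and 22 of the 28 genes had such a window. Sqle, Fdft1, Fdps, Stard4, Soat2 and Npc1 had none, so their starts were not searched. Capitals mark matches on either strand to TCACNCCAC (sterol regulatory element), CCAAT (NF-Y), GGGCGG (Sp1) or CACGTG (E-box), and each window reads 5′ to 3′ along its gene. The windows are Insig1 at chr5:28071162-28071461 (plus strand), Insig2 at its upstream start, chr1:121332540-121332839 (minus strand), Insig2 at an inner start, chr1:121327629-121327928 (minus strand), and Hmgcs1 at chr13:119690101-119690400 (plus strand).
Insig1: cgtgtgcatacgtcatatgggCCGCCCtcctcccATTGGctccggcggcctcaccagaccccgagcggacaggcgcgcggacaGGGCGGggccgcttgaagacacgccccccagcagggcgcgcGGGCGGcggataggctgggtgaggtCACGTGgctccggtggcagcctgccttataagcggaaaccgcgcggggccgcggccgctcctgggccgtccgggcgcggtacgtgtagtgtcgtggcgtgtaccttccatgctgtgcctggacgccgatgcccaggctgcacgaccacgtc
Insig2 upstream start: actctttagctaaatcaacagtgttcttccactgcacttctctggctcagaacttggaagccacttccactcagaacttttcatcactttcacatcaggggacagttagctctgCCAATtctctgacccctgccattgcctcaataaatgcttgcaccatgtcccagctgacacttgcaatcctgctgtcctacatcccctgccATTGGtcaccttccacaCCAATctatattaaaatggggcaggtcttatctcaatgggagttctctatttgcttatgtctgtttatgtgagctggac
Insig2 inner start: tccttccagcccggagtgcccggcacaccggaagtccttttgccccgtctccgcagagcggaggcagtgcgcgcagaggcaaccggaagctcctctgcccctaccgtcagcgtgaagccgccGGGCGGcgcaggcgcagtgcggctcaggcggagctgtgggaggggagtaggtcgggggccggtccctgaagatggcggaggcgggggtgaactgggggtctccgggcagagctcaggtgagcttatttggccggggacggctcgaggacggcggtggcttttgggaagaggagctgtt
Hmgcs1: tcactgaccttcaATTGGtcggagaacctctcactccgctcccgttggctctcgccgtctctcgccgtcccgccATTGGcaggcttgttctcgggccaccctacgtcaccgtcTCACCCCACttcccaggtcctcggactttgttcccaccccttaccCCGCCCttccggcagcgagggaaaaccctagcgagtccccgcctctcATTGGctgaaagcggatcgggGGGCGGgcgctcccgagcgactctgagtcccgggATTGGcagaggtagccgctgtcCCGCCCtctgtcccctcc

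The sterol regulatory element as spelled above occurred in the window of 1 of the 22 genes, Hmgcs1, and in 1.44% of the 27025 genes in the table. The NF-Y letters occurred in 18 of the 22 genes and in 41.1% of all genes. Sp1 letters were found in 20 of the 22 genes, against 38.2% of all genes, and the E-box in 7 of the 22, against 8.09% of all genes. The upstream Insig2 window held 3 NF-Y matches and no Sp1 match, while the inner one held 1 Sp1 match and no NF-Y match. The Insig1 window held 1 NF-Y, 3 Sp1 and 1 E-box match. These are letter matches, and a window without one says nothing of factor binding.

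On the high-fat diet, chromatin in and beyond the 3′ part of Insig2 was more open in LKO than in flox livers. Of its 36 intervals, 8 passed the edgeR quasi-likelihood test after Benjamini-Hochberg adjustment over the whole table, all higher in LKO, with log2 fold changes of 1.11 to 1.86. Over all high-fat intervals 0.448% passed as higher in LKO. All 36 Insig2 intervals had a positive log2 fold change, with a median of 0.86, against -0.0039 over all intervals. Of the 36, 34 had deposited names that begin with KO, and all high-fat intervals so named had a median of 0.125. The 2 intervals at annotated starts had values of 0.10 and 0.39, and the other 34 had a median of 0.88.

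Inside Insig2, the interval at chr1:121304866-121305366, 22.6 kb past the nearest annotated start, held 4.29, 9.16, 4.44 and 12.9 CPM in LKO livers 1 to 4, against 2.70, 1.56, 3.39 and 3.46 CPM in flox livers 1 to 4. Its log2 fold change was 1.48 (SE 0.31, edgeR adjusted p = 0.0145), and every LKO value lay above every flox value. At chr1:121308618-121309118, also inside the gene, LKO livers held 4.40, 5.41, 4.18 and 11.7 CPM and flox livers 1.69, 1.66, 3.02 and 3.69 CPM. This difference of 1.36 on the log2 scale (SE 0.33, edgeR adjusted p = 0.0374) again left the groups apart, with LKO 4 far above the other LKO livers.

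Past the gene's 3′ end, 5 further intervals passed. The one at chr1:121302031-121302531, 2072 bp past the end, held 6.76, 7.17, 4.44 and 17.8 CPM in LKO livers and 3.60, 2.93, 5.03 and 4.26 CPM in flox livers (log2 fold change 1.197, SE 0.30, edgeR adjusted p = 0.0486). LKO 3 fell within the flox range there. At chr1:121301209-121301709 the LKO values were 4.94, 5.63, 7.70 and 17.2 CPM and the flox values 1.01, 1.95, 3.77 and 4.84 CPM (1.62, SE 0.35, edgeR adjusted p = 0.0187). At chr1:121300140-121300640 they were 3.11, 3.86, 4.05 and 10.7 CPM in LKO and 1.80, 1.66, 2.01 and 1.27 CPM in flox livers (1.68, SE 0.36, edgeR adjusted p = 0.0175). Both intervals separated the groups, by a narrow margin in the first. Farther out, chr1:121299469-121299969 held 4.94, 8.49, 8.10 and 18.9 CPM in LKO and 3.03, 3.80, 5.78 and 4.49 CPM in flox livers (1.24, SE 0.29, edgeR adjusted p = 0.0304). The most distant, chr1:121286803-121287303, 17300 bp past the end, held 1.82, 4.19, 8.62 and 14.0 CPM in LKO and 1.01, 0.780, 3.52 and 2.65 CPM in flox livers (1.86, SE 0.43, edgeR adjusted p = 0.0313). In these last 2 intervals LKO 1 lay within the flox range.

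On the other side of the gene, 1 interval passed 18204 bp before its upstream bound, at chr1:121350616-121351116. LKO livers held 4.83, 9.16, 9.14 and 10.99 CPM and flox livers 4.72, 2.15, 4.15 and 4.84 CPM there, a log2 fold change of 1.11 (SE 0.26, edgeR adjusted p = 0.0320). LKO 2, 3 and 4 lay above all flox livers, and LKO 1 lay just under the highest of them. LKO 4 had the highest value in each of the 8 intervals.

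The intervals at the starts of Insig2 did not pass. The strongest Insig2 interval, chr1:121327663-121328163, which covers its inner starts, held 61.6, 53.4, 48.1 and 54.4 CPM in LKO livers and 41.5, 52.8, 54.2 and 55.2 CPM in flox livers. The groups overlapped widely, with a log2 fold change of 0.10 (SE 0.10, edgeR adjusted p = 0.828). The interval at the upstream start, chr1:121332523-121333023, held 9.01, 17.2, 10.7 and 13.3 CPM in LKO and 5.96, 8.87, 10.3 and 13.3 CPM in flox livers, a log2 fold change of 0.39 (SE 0.21, edgeR adjusted p = 0.553).

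**Figure D1:**
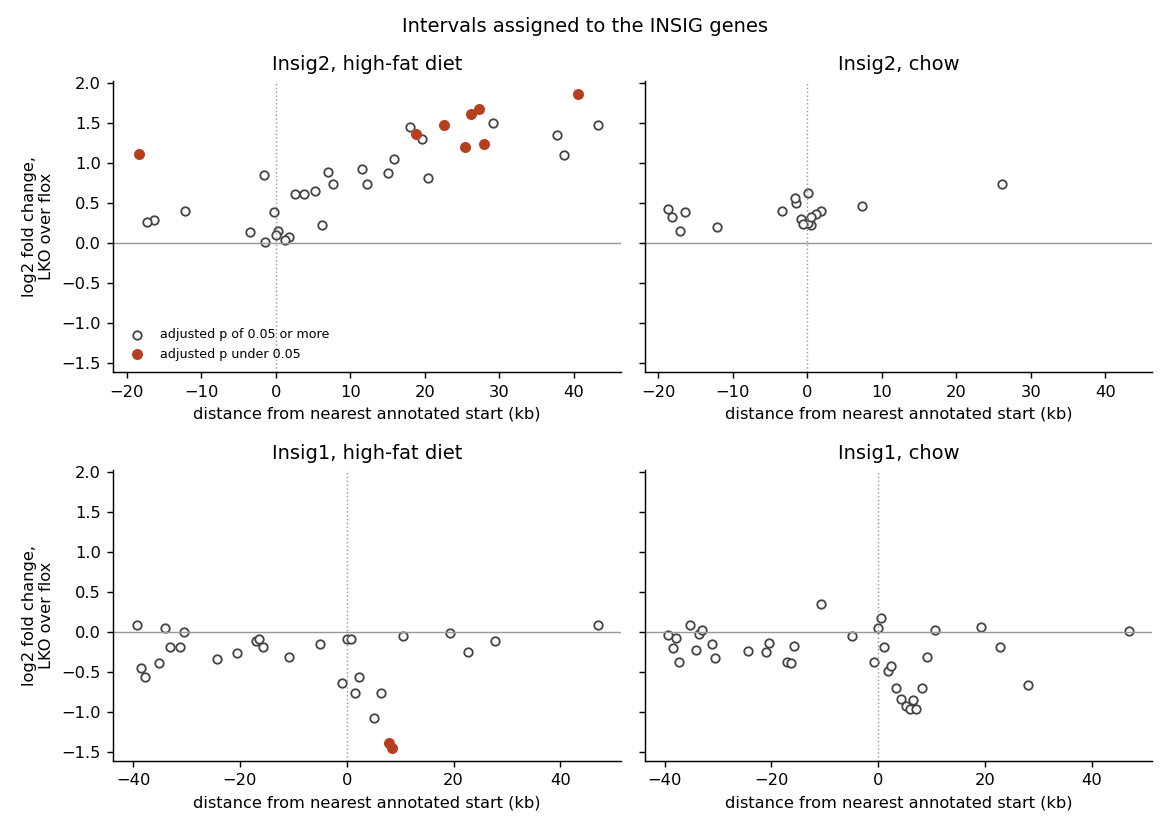
Log2 fold change (LKO over flox, y axis) of each interval assigned to Insig2 (top) and Insig1 (bottom) against its distance from the nearest annotated start in kb (x axis, positive in the direction of transcription), on the high-fat diet (left) and chow (right). Filled points have an adjusted p under 0.05: 8 Insig2 intervals above 0 and 2 Insig1 intervals below 0, all on the high-fat diet.

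Insig1 moved the other way past its 3′ end. Of its 29 high-fat intervals 2 passed, both lower in LKO, where 0.303% of all intervals passed as lower. At chr5:28079132-28079632, 720 bp past the gene, LKO livers held 4.19, 4.30, 4.57 and 3.41 CPM and flox livers 4.38, 8.87, 10.9 and 19.4 CPM. The means were 4.12 ± 0.498 CPM in LKO and 10.9 ± 6.27 CPM in flox livers (SD, n = 4 each), a log2 fold change of -1.39 (SE 0.28, edgeR adjusted p = 0.0105). Flox 1 lay within the LKO range and flox 4 was highest. The neighbouring interval, chr5:28079728-28080228, 1316 bp past the gene, held 2.58, 3.20, 4.70 and 2.399 CPM in LKO and 2.47, 5.07, 11.3 and 16.4 CPM in flox livers (-1.45, SE 0.36, edgeR adjusted p = 0.0451). There too flox 1 lay inside the LKO range and flox 4 was highest.

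At the Insig1 start, chr5:28071168-28071668, LKO livers held 26.3, 22.9, 26.5 and 20.2 CPM and flox livers 24.2, 22.3, 24.0 and 31.8 CPM. These overlapped, with a log2 fold change of -0.09 (SE 0.13, edgeR adjusted p = 0.887). The strongest Insig1 interval on this diet, chr5:28055412-28055912, lay 15750 bp upstream of the gene and held 28.2, 24.2, 24.9 and 20.5 CPM in LKO and 21.9, 30.8, 24.0 and 34.5 CPM in flox livers (-0.19, SE 0.14, edgeR adjusted p = 0.710). Of the 29 intervals, 26 had a negative log2 fold change, with a median of -0.19.

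**Figure D2:**
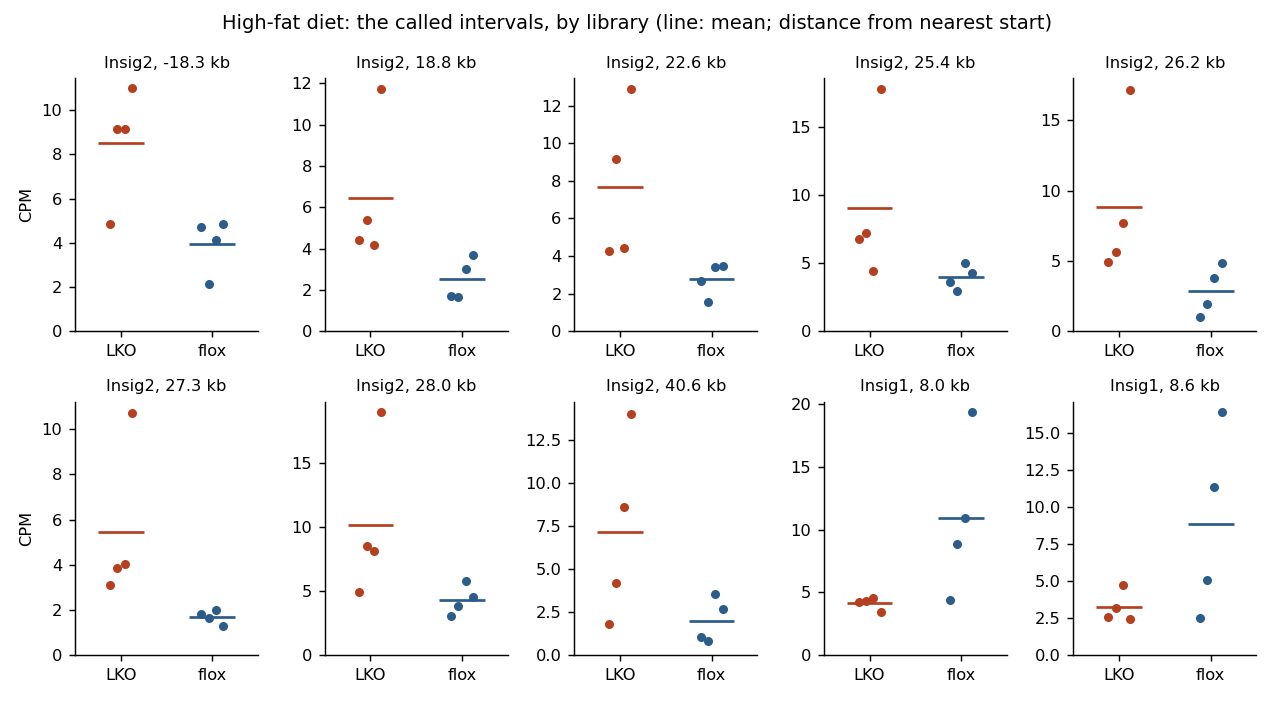
CPM by library (points) and group mean (line) in the 10 intervals that passed on the high-fat diet, with LKO left of flox and each y axis starting at 0. Panel titles give the distance from the nearest annotated start. LKO 4 is the highest library in all 8 Insig2 panels, and flox 4 in both Insig1 panels.

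The 10 calls depended on which animals were included. Without LKO 4 edgeR called 0 of the 261 intervals (49 at an unadjusted p under 0.05). Without flox 2 it called no Insig2 interval and 2 Insig1 intervals, and without flox 4 it called 4 Insig2 intervals and no Insig1 interval. DESeq2 called 7 of the intervals, 6 of Insig2 and 1 of Insig1, while limma-voom with quality weights called 1 Insig2 interval and none of these 10. Without LKO 4 the log2 fold changes of the 8 Insig2 intervals ran from 0.65 to 1.31, with 0.65 at chr1:121302031-121302531 and 0.75 at chr1:121299469-121299969, and the second Insig1 interval had -0.95 without flox 4.

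The names of the deposited intervals begin with KO or WT, read here as the genotype in which the interval was found. Among all high-fat intervals, 73.9% of WT-named intervals had a negative log2 fold change, against 26.9% of KO-named ones, and the part of the names in the counts of signs given here was not tested. Of the 36 Insig2 intervals 34 were KO-named, including the 8 that passed, and the 2 WT-named ones were positive as well. Of the 29 Insig1 intervals 23 were WT-named, including the 2 that passed, and 22 of these 23 were negative, with a median of -0.32. The 6 KO-named Insig1 intervals had a median of -0.03.

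Summed over all its intervals, Insig2 held 262, 345, 282 and 470 CPM in high-fat LKO livers and 190, 221, 244 and 257 CPM in flox livers. The means of 339.5 ± 93.8 CPM and 228 ± 29.5 CPM (SD, n = 4 each) gave a log2 fold change of 0.57 (SE 0.14, edgeR adjusted p = 0.104). The groups were apart, yet the sum missed the threshold, and without LKO 4 its log2 fold change was 0.38. The sum counts the same 36 intervals, 34 of them KO-named and 8 called, and so adds no separate evidence. Insig1 summed to 288, 297.5, 284.5 and 266 CPM in LKO and 287, 346, 334 and 409 CPM in flox livers, a log2 fold change of -0.28 (SE 0.09, edgeR adjusted p = 0.284). Flox 1 lay within the LKO range.

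On chow the Insig genes had the same signs and no call. Of the 253 intervals edgeR called 0, where 0.0227% of all chow intervals passed. At an unadjusted p under 0.05 there were 16, 5 higher and 11 lower in LKO, against 6.77% of all intervals, and DESeq2 and limma-voom also called 0. All 18 Insig2 intervals were positive, from 0.15 to 0.74, with a median of 0.38, and 16 of them were KO-named. Of 37 Insig1 intervals 29 were negative, with a median of -0.23, and 27 of the 37 were WT-named. Over all chow intervals 77.4% of the WT-named and 23.6% of the KO-named were negative.

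The strongest chow interval of Insig2, chr1:121327634-121328134 at its inner starts, held 77.8, 65.4 and 75.7 CPM in the 3 LKO livers and 65.0, 56.2 and 62.3 CPM in the 3 flox livers. The groups were just apart, with a log2 fold change of 0.25 (SE 0.11, edgeR adjusted p = 0.732). At the upstream start, chr1:121332279-121332779, LKO livers held 17.5, 9.35 and 18.6 CPM and flox livers 14.8, 6.37 and 8.29 CPM (0.62, SE 0.32, edgeR adjusted p = 0.753). The Insig2 interval with the lowest p, chr1:121301280-121301780, lies past the gene's 3′ end, where a high-fat interval passed, and held 6.10, 7.03 and 4.71 CPM in LKO and 2.65, 4.27 and 3.80 CPM in flox livers (0.74, SE 0.25, edgeR adjusted p = 0.594). All 3 LKO livers were above the flox livers there, which choosing by the lowest p favours.

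The strongest chow interval of Insig1 lay past the gene, at chr5:28079364-28079864, and not upstream as on the high-fat diet. LKO livers held 33.6, 59.3 and 17.8 CPM and flox livers 52.0, 100.8 and 26.8 CPM, a log2 fold change of -0.70 (SE 0.45, edgeR adjusted p = 0.779). The libraries numbered 2 were highest and those numbered 3 lowest in both groups, and within each number the LKO library was lower. The log2 fold change was -1.21 without LKO 2 and -0.11 without flox 2. The lowest p lay inside the gene at chr5:28077123-28077623, with 12.8, 15.6 and 7.48 CPM in LKO and 25.9, 33.1 and 10.7 CPM in flox livers (-0.96, SE 0.37, edgeR adjusted p = 0.671). At the start, chr5:28071183-28071683, the values were 47.8, 38.9 and 39.1 CPM in LKO and 46.3, 36.1 and 39.2 CPM in flox livers (0.05, SE 0.13, edgeR adjusted p = 0.941).

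With the column number as a replicate block, 3 of the Insig1 intervals were called lower in LKO on chow, where 0.134% of all intervals were called lower. They were the strongest one (-0.66, SE 0.08, edgeR adjusted p = 0.0402) and 2 inside the gene, chr5:28077645-28078145 (-0.82, SE 0.10, edgeR adjusted p = 0.0433) and chr5:28078309-28078809 (-0.91, SE 0.12, edgeR adjusted p = 0.0459). The first of these 2 held 15.1, 20.3 and 6.78 CPM in LKO and 26.6, 37.7 and 11.5 CPM in flox livers, and the other held 10.8, 13.9 and 5.10 CPM in LKO and 21.0, 28 and 8.48 CPM in flox livers. As groups they overlapped, while each LKO library lay below the flox library of its number. The numbers come from the column names of the table, and whether they pair the animals is not known.

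Whether the genotype effect differed between diets was tested on 190 intervals of these genes that matched between the tables with at least 50% overlap. No difference passed in edgeR, where 0.183% of all matched intervals did, and 12 had an unadjusted p under 0.05, against 7.44% of all. DESeq2 called 0 as well. Only 2 of the 8 called Insig2 intervals and 1 of the 2 called Insig1 intervals had a match in the chow table. The Insig2 interval past the gene had an effect of 1.62 on the high-fat diet and 0.74 on chow, and the difference was 0.91 (SE 0.54, edgeR adjusted p = 0.760). The one upstream had 1.11 on the high-fat diet and 0.33 on chow, with a difference of 0.81 (SE 0.38, edgeR adjusted p = 0.656). For the Insig1 interval the effects were -1.39 on the high-fat diet and -0.70 on chow, with a difference of -0.67 (SE 0.58, edgeR adjusted p = 0.868). The Insig effects were thus not shown to depend on diet.

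The 18 synthesis enzymes showed no interval past the threshold on either diet. On the high-fat diet edgeR called 0 of their 84 intervals. At an unadjusted p under 0.05, 18 were lower in LKO, where 4.8% of all intervals were, and 1 was higher, where 5.41% were. The median log2 fold change was -0.20, and 67 of the 84 intervals, or 79.8%, were negative, against 50.6% of all high-fat intervals. Of the 84, 57 were WT-named, of which 91.2% were negative, against 73.9% of all WT-named intervals. Of the 27 KO-named enzyme intervals 55.6% were negative, against 26.9% of all KO-named intervals. The part of the names in the sign was not tested.

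On the high-fat diet enzyme intervals at annotated starts lay nearer to 0 than those elsewhere, a difference that was not tested. At the annotated starts of 14 enzymes the high-fat log2 fold changes ran from -0.20 to 0.27 with a median of -0.0059. The other 45 intervals of enzymes with an annotated start ran from -1.13 to 0.51 with a median of -0.22. On chow the 14 start intervals had a median of 0.11 and the other 60 a median of -0.03. The enzymes held 102 chow intervals, with a median of -0.06, of which 59 were negative, 8 had an unadjusted p under 0.05 and 0 were called. Most intervals away from starts also had lower mean CPM than those at starts, as the plot of enzyme intervals shows, and the part of this level in the difference was not tested.

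**Figure D3:**
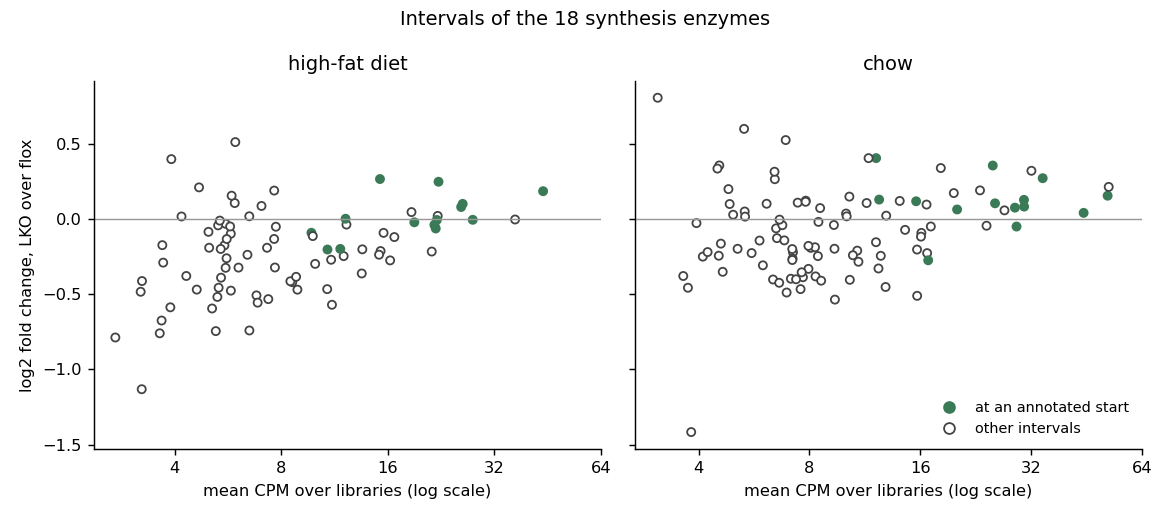
Log2 fold change (LKO over flox, y axis) against mean CPM over all libraries (x axis, log scale) for each interval of the 18 enzymes, on the high-fat diet (left, 84 intervals) and chow (right, 102 intervals). Filled points lie at an annotated start: on the high-fat diet they run from -0.20 to 0.27 with most open points below 0, and on chow they have a median of 0.11. Open points include all intervals of Sqle, Fdft1 and Fdps, which had no annotated start here.

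Among the early enzymes, which lead from acetyl-CoA to farnesyl and geranylgeranyl diphosphate, Hmgcs1 had the interval with the lowest p. It lay inside the gene at chr13:119696427-119696927 and held 2.25, 1.32, 1.96 and 2.53 CPM in high-fat LKO livers against 3.71, 3.12, 5.53 and 5.42 CPM in flox livers, a log2 fold change of -1.13 (SE 0.32, edgeR adjusted p = 0.102). The groups were apart at these low counts, and choosing an interval by its p favours such separation. At the Hmgcs1 start, whose sequence is given above, LKO livers held 27.9, 25.04, 30.3 and 22.7 CPM and flox livers 23.4, 23.2, 27.4 and 26.4 CPM, with a log2 fold change of 0.08 (SE 0.12, edgeR adjusted p = 0.895). An interval 1606 bp from Fdps, the farnesyl diphosphate synthase, at chr3:89103323-89103823, held 3.86, 4.52, 3.66 and 3.54 CPM in LKO and 5.84, 6.44, 7.29 and 6.68 CPM in flox livers (-0.75, SE 0.23, edgeR adjusted p = 0.137). It had the lowest p of the Fdps intervals, a choice that favours separated groups, and it separated the groups without passing.

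Late enzymes turn farnesyl diphosphate into squalene and then cholesterol. Sqle, the squalene epoxidase, held 36.9, 36.5, 35.7 and 37.3 CPM in high-fat LKO and 35.3, 35.3, 35.4 and 40.7 CPM in flox livers in its strongest interval, chr15:59314817-59315317, a log2 fold change of -0.0033 (SE 0.10, edgeR adjusted p = 0.996). The interval next to it, chr15:59314238-59314738, held 8.05, 10.9, 11.2 and 5.56 CPM in LKO and 11.1, 11.6, 15.5 and 15.1 CPM in flox livers (-0.57, SE 0.20, edgeR adjusted p = 0.221), and the groups overlapped. Over its 9 intervals Sqle summed to 90.4, 102, 88.8 and 93.8 CPM in LKO and 104, 112, 107 and 126 CPM in flox livers, with no overlap and a log2 fold change of -0.26 (SE 0.08, edgeR adjusted p = 0.188). Lss, which closes the sterol rings, had the opposite sign, with sums of 32.1, 34.8, 33.5 and 32.7 CPM in LKO and 23.0, 29.9, 22.6 and 32.4 CPM in flox livers (0.30, SE 0.12, edgeR adjusted p = 0.376). Flox 4 lay within the LKO range for Lss.

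Summed per gene, edgeR called 0 of the 28 genes on the high-fat diet, where 0.344% of all genes passed, and DESeq2 and limma-voom called 0 too. At an unadjusted p under 0.05 there were 10 of 28, against 10.0% of all genes: Srebf2, Insig1, Fdft1, Sqle, Sc5d, Dhcr7 and Stard4 with lower sums in LKO, and Insig2, Lss and Soat2 with higher ones. Of the 18 enzymes 15 had a negative log2 fold change, from -0.01 for Acat2, the cytosolic thiolase, to -0.40 for Nsdhl, which takes part in removing sterol methyl groups. The positive ones were Ggps1 (0.14), Hsd17b7 (0.26) and Lss. Among the remaining early enzymes the values were -0.15 for Hmgcs1 and Mvk, the mevalonate kinase, -0.09 for Pmvk, -0.13 for Mvd, -0.02 for Idi1 and -0.18 for Fdps. Among the remaining late enzymes they were -0.20 for Fdft1 (squalene synthase), -0.15 for Cyp51 (sterol demethylase), -0.05 for Msmo1, -0.20 for Tm7sf2, -0.21 for Sc5d and -0.24 for Dhcr7, which makes the last double-bond reduction. The SE of these values ran from 0.08 to 0.25. The sums hold the same KO-named and WT-named intervals as above, and the part of the names in their signs was not tested.

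On chow edgeR called 0 of the 28 gene sums and 0.0% of all genes, and 0 of the 28 had an unadjusted p under 0.05, against 6.56% of all genes. DESeq2 and limma-voom called 0 of the 28 as well. The Insig2 sum had a log2 fold change of 0.33 (SE 0.15, edgeR adjusted p = 0.718), with 274.5, 207 and 287.5 CPM in LKO and 240, 178 and 195 CPM in flox livers. The Insig1 sum had -0.32 (SE 0.18, edgeR adjusted p = 0.718), with 684, 668 and 462 CPM in LKO and 794, 881 and 595 CPM in flox livers. Both overlapped between groups, while within each of the 3 column numbers Insig2 was higher and Insig1 lower in the LKO library. The 18 enzymes split into 8 positive and 10 negative, from -0.37 for Nsdhl and -0.29 for Tm7sf2 to 0.22 for Msmo1 and 0.25 for Hsd17b7.

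**Figure D4:**
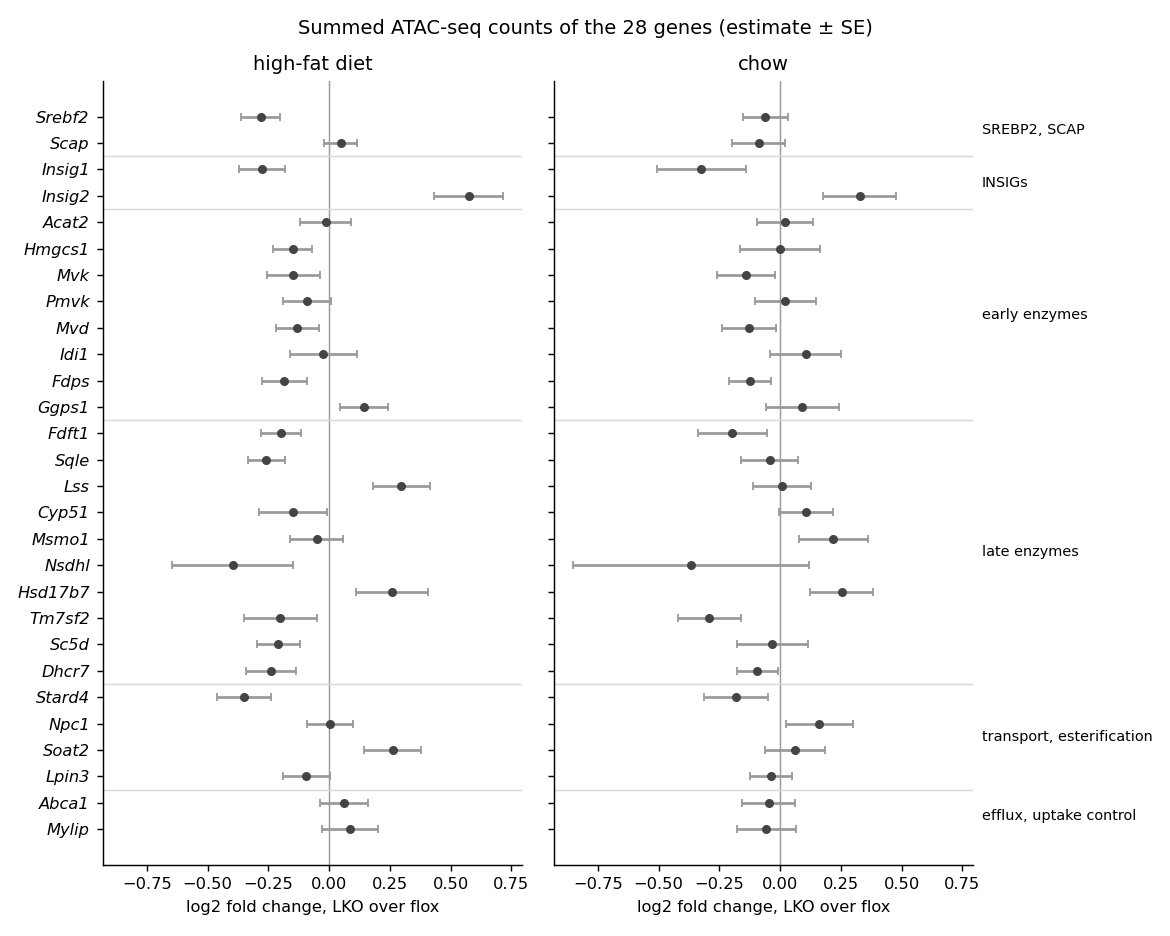
Log2 fold change (LKO over flox, x axis) with its SE (bars) of counts summed over all intervals of each of the 28 genes, grouped by role, on the high-fat diet (left) and chow (right). Insig2 has the largest positive value on both diets (0.57 on the high-fat diet and 0.33 on chow), and 15 of 18 enzymes lie below 0 on the high-fat diet, against 10 on chow. The part of the KO and WT interval names in these signs was not tested.

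Srebf2, the gene of SREBP2 itself, had a negative log2 fold change in all 11 of its high-fat intervals. Its sums were 111, 118, 115 and 98.7 CPM in LKO and 145, 139, 118.5 and 136 CPM in flox livers, a log2 fold change of -0.28 (SE 0.08, edgeR adjusted p = 0.161). The groups were barely apart, with LKO 2 just under flox 3. The interval at its start, chr15:82147005-82147505, held 23.7, 21.4, 22.6 and 18.2 CPM in LKO and 24.95, 22.7, 21.5 and 27.0 CPM in flox livers (-0.16, SE 0.13, edgeR adjusted p = 0.739). The lowest p lay inside the gene at chr15:82188443-82188943, with 6.65, 3.86, 3.13 and 4.04 CPM in LKO and 9.55, 7.51, 6.41 and 8.18 CPM in flox livers (-0.83, SE 0.23, edgeR adjusted p = 0.100). LKO 1 was above flox 3 there.

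On chow Srebf2 had a sum of 81.6 ± 6.19 CPM in LKO and 85.2 ± 6.51 CPM in flox livers (SD, n = 3 each), a log2 fold change of -0.06 (SE 0.09, edgeR adjusted p = 0.840). Scap, the escort of SREBP2, had log2 fold changes of 0.05 (SE 0.07, edgeR adjusted p = 0.878) on the high-fat diet and -0.09 (SE 0.11, edgeR adjusted p = 0.806) on chow. Its sums were 144 ± 5.07 CPM in high-fat LKO and 139 ± 5.31 CPM in high-fat flox livers (SD, n = 4 each), so the groups overlapped.

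**Figure D5:**
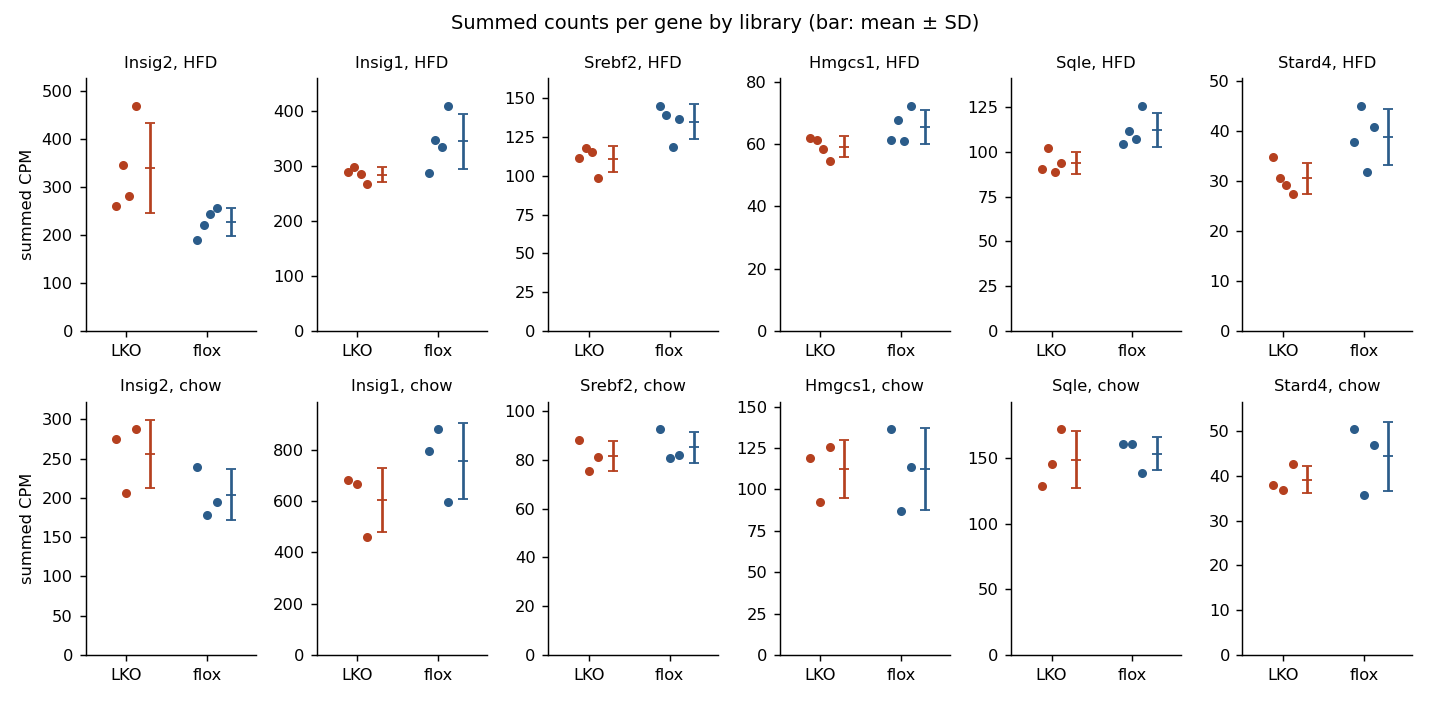
Summed CPM by library (points) with mean ± SD (bars) for Insig2, Insig1, Srebf2, Hmgcs1, Sqle and Stard4, LKO left of flox, on the high-fat diet (top, n = 4 each) and chow (bottom, n = 3 each). On the high-fat diet LKO and flox points do not overlap for Insig2, Srebf2 and Sqle, and on chow they overlap in all 6 genes. None of these sums passed, and the share of all genes without overlap was not counted.

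Of the transport genes, Stard4, whose protein carries cholesterol between membranes, had 4 intervals on each diet, all negative. It summed to 34.8, 30.8, 29.2 and 27.5 CPM in high-fat LKO and 37.9, 45.2, 31.8 and 40.9 CPM in flox livers (-0.35, SE 0.11, edgeR adjusted p = 0.235), with flox 3 inside the LKO range. Its strongest interval lay 45793 bp from the gene, so its link to Stard4 rests on the assignment rule. Soat2, the esterifying enzyme of hepatocytes, summed to 30.4, 36.4, 24.98 and 34.6 CPM in LKO and 26.6, 28.5, 26.3 and 24.0 CPM in flox livers (0.26, SE 0.12, edgeR adjusted p = 0.456), and the groups overlapped. Npc1, which exports cholesterol from lysosomes, had 0.01 (SE 0.10), and Lpin3, a phosphatidate phosphatase, had -0.09 (SE 0.10). On chow these 4 genes lay between -0.18 for Stard4 and 0.16 for Npc1.

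Abca1, the exporter of cholesterol to apolipoprotein A-I, held the most intervals of the 28 genes. Of its 49 high-fat intervals 31 were positive, and its sum gave a log2 fold change of 0.06 (SE 0.10, edgeR adjusted p = 0.891). The interval with the lowest p, chr4:53153047-53153547 inside the gene, held 6.01, 8.05, 6.79 and 4.67 CPM in LKO and 2.70, 4.10, 4.27 and 3.46 CPM in flox livers, a log2 fold change of 0.81 (SE 0.25, edgeR adjusted p = 0.137). The groups were apart, which choosing by the lowest p favours. Another Abca1 interval gave the lowest p of the diet test, with an effect of 0.59 on the high-fat diet and -0.82 on chow and a difference of 1.45 (SE 0.42, edgeR adjusted p = 0.261). Mylip, a ubiquitin ligase that removes lipoprotein receptors, had 0.09 (SE 0.12) on the high-fat diet and -0.06 (SE 0.12) on chow.

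Of the other genes of the pathway, the LXR nuclear receptors and sterol exporters (Nr1h2, Nr1h3, Abcg1, Abcg5, Abcg8), which drive and carry out cholesterol efflux, held 42 intervals on the high-fat diet and 29 on chow. No interval of these 5 genes passed in edgeR on either diet, and 0 of the 5 gene sums had an unadjusted p under 0.05 on either. The median log2 fold change of their gene sums was 0.01 on the high-fat diet and 0.03 on chow. Summed over the list, high-fat LKO livers held 379 to 446 CPM and high-fat flox livers 386 to 435 CPM, and the groups overlapped.

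Markers of the cell types of liver were read beside these results. On the high-fat diet 33 of 299 intervals of the hepatocyte list passed as lower and 1 as higher in LKO, all in Alb, Apob and Ttr. Over all intervals 0.303% passed as lower and 0.448% as higher. The gene sums of Alb, Apob and Ttr had log2 fold changes of -0.65, -0.38 and -0.79, and of these only Ttr passed (edgeR adjusted p = 0.00152). No interval of Apoa1, Hnf4a or Cps1 passed, and their gene sums had log2 fold changes of -0.29, 0.03 and 0.04. The hepatocyte list summed to 2423 to 3431 CPM in LKO and 2600 to 4901 CPM in flox livers. No interval of the other lists passed. Kupffer cell and macrophage markers (6 of 7 with an interval, Timd4 without) summed to 141 to 158 CPM in LKO and 114.5 to 155 CPM in flox livers. Stellate markers (5 of 6) summed to 65.5 to 79.2 CPM in LKO and 54.2 to 68.3 CPM in flox livers. Sinusoidal endothelium (6 of 6) summed to 387 to 434 CPM in LKO and 365 to 436 CPM in flox livers, lymphocytes (3 of 6) to 48.4 to 51.0 CPM in LKO and 46.3 to 57.7 CPM in flox livers, and cholangiocytes (3 of 5) to 62.6 to 69.4 CPM in LKO and 56.0 to 64.4 CPM in flox livers. On chow 1 Alb interval passed, higher in LKO, and no interval of the other marker lists did. This interval lay outside the gene, 10718 bp from it, at chr5:90449902-90450402 (log2 fold change 1.29). It overlapped the Alb interval that passed as higher on the high-fat diet, chr5:90449866-90450366 (1.42). Only LKO animals carry Albumin-Cre, and any part of the transgene in the reads of these intervals was not tested. The part of cell composition in the Insig1 and Insig2 results was not tested, and in whole liver fewer cells of a type and less open chromatin per cell cannot be told apart.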

How the data were processed

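ATAC-seq reads were deposited as raw counts of aligned reads per 501 bp interval, in a table for each diet, with intervals chosen by the authors. The submitters' processing notes name MACS2 2.2.7.1, HOMER 4.11, Bowtie2 2.4.2, ChIPseeker 4.1.1, Trim Galore 0.6.7, DESeq2 4.2.0, bedtools and the build mm10, without roles. How duplicates, mitochondrial reads, the transposase offset and pooling for interval calls were handled was not given in the sources used here, and duplicates, if kept, would inflate low counts.

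From the deposited counts, edgeR 4.0.16 (R 4.3.3, limma 3.58.1) was fitted to each table with TMM factors and a quasi-likelihood test of LKO against flox, for intervals and for counts summed per gene, with Benjamini-Hochberg adjustment over the whole table and a threshold of 0.05. The low-count filter removed no interval. CPM are scaled to reads within intervals after TMM. The diet difference was fitted on matched intervals of both tables, so diet and table cannot be told apart in it. Column names give genotype and number, and which single animal a chow column is was not linked to the labels. In chow, deviations from the group means correlated between same-numbered libraries (0.184, 0.533 and 0.189). By a threshold of 0.1 the numbers were read as possible pairs, for the replicate block only, and the main fits used no block. However, LKO 1 correlated more with flox 3 (0.278), and LKO 3 correlated with flox 1 at 0.184. The correlations therefore do not settle whether numbers 1 and 3 are pairs. The labels number the females, so each library was taken as 1 animal. Simulated data with known changes were fitted after the main fits, and their results are not reported here.

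Alternatives were DESeq2 1.42.0, limma-voom with quality weights, other scalings and filters, a replicate block, leaving out libraries, assignment within 5000 bp, and matching at 80% overlap. Gene bounds came from RefSeq. Values per library are given for the strongest interval, the interval at a start, each interval that passed, and otherwise the one with the lowest p, with Insig1 and Insig2 in full. The genes, lists and tests were chosen with earlier results of these data known. Other lists of sterol pathway genes are not reported here.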

Additional observations from a re-analysis of the deposited data

Results flagged for a closer look

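In 5 of 82 groups of 4 high-fat libraries, 1 library lay far from the other 3 by Dixon's criterion, and chance alone gives about 1 in 20. At the Insig2 interval chr1:121300140-121300640 LKO 4 held 10.73 CPM, against 3.11 to 4.05 CPM in the other LKO livers. At the Insig2 interval chr1:121308618-121309118 LKO 4 held 11.74 CPM, against 4.18 to 5.41 CPM in the others. Both intervals are among the 8 that passed, and none of the 8 passed without LKO 4. Among gene sums, Hsd17b7 held 20.73 CPM in LKO 3 (16.5 to 17.0 CPM in the other LKO livers), Dhcr7 55.33 CPM in LKO 1 (42.3 to 43.0 CPM) and Abca1 595.1 CPM in LKO 2 (433 to 444 CPM).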

How the results depend on the processing

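Of the summary values recomputed under an alternative, 101 stayed within 1.5 times (counts) or the replicate spread (medians) and 11 moved. No called value changed sign, while the chow median, which has no test, did. Of 261 high-fat intervals, 10 passed in edgeR, 1 in limma-voom, 16 with the replicate block (13 Insig2 intervals higher, 2 Insig1 and 1 Srebf2 interval lower, as calls among all 105801 intervals went to 1420 from 795), and 0 to 15 when 1 library was left out. High-fat gene sums gave 0 calls, 3 with the replicate block (Insig2, Sqle and Srebf2, as calls among all 16280 genes went to 351 from 56), and 0 to 3 when 1 library was left out: 1 without LKO 1 (Insig2) and 3 without flox 3 (Insig2, Srebf2 and Stard4, with 196 among all genes). Same-numbered high-fat libraries had correlations of 0.0676, 0.131, 0.177 and -0.0105, which do not settle whether the numbers are pairs. Chow intervals gave 0 calls and 3 with the replicate block, which changed no chow gene sum. The diet difference gave 0 calls, and 0 to 1 when 1 library was left out (an Abca1 interval without chow flox 2). The chow median log2 fold change was -0.04, and 0.0695 with only the strongest interval of each gene. The causes were not tested. Many called intervals held under 10 CPM at 7.59 to 10.4 M reads, which limits their precision.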
